A study of Chlorocebus sabaeus with 4 samples.

Results

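The genes described here are 51 that burn, build or store fatty acids, taken from a fixed list: enzymes of mitochondrial fatty acid oxidation with their transport and electron transfer partners, regulators of oxidation, enzymes of fatty acid synthesis, of triglyceride assembly and of lipid droplets, and proteins that take up, bind or activate fatty acids. For each gene the brightest probe set with a single gene symbol was used, judged by its mean over the 4 samples. By this rule 48 of the 51 were measured, among 19775 genes in all, and 45 of the 48 lay at or above the median level of all genes (a mean log2 signal of 5.26), which is called the level filter below. The 3 measured members below it were ACADM, ACADL and PPARGC1A. CPT1B and FADS1 had only probe sets shared with another symbol, and ACSL3 was not analysed here.

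The tissue was the corpus luteum, the progesterone-making gland that forms from the ovulated follicle, of 2 adult female vervet monkeys (Chlorocebus sabaeus), both 16 years old. Monkey 1031 was under calorie restriction and gave samples 2 and 1, and monkey 1030 was fed ad libitum and gave samples 2 and 1, with 1 array per sample. Each animal was its own control for weight change, but the labels do not say which sample number was collected first. A group is thus a single animal, diet and animal cannot be told apart, and a change within an animal (sample 2 minus sample 1, on the log2 signal scale) has no replicate and no test. Changes of 2-fold or more are called higher or lower as a rule of size.

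Fatty acids enter cells with the help of CD36 or after lipoprotein lipase (LPL) has freed them from lipoproteins, are carried by binding proteins (FABPs) and are activated to acyl-CoA by ACSL enzymes. Acyl-CoA is then either passed into mitochondria by the carnitine shuttle and shortened by beta-oxidation, whose electrons reach the respiratory chain through the electron transfer flavoprotein, or built into triglyceride and stored in droplets. Luteal cells hold many lipid droplets, which store cholesteryl esters for steroid synthesis beside triglyceride, and the PPAR receptors respond to fatty acids and switch on genes of both fates.

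The 4 arrays had median log2 signals of 3.96 to 4.00 over all probe sets. Sample 2 of the ad libitum animal stood apart, since it differed 2-fold from each other sample in 6 to 10 of the 48 members, whereas the other 3 samples differed from each other in 1 to 3. Over the 9888 genes past the filter the shares were 9.22% to 10.4% for pairs with that sample and 1.23% to 3.37% for the others. In mean log2 signal of the 18 added hybridisation control probe sets the samples measured 10.54 and 10.09 (calorie restriction, samples 2 and 1) and 9.85 and 10.58 (ad libitum, samples 2 and 1). The 12 luteal steroidogenic cell markers, of which 9 passed the level filter, were also far apart. Summed on the linear scale they gave 20753 and 12849 in the calorie restriction animal (samples 2 and 1) and 4333 and 31363 in the ad libitum animal (samples 2 and 1), where 10 of the 12 were 2-fold lower in sample 2. Luteal markers were thus present in all 4 samples and lowest in that one, while the sums of 5 theca and interstitial cell markers, all past the filter, were 1906 and 2926 (calorie restriction) against 8657 and 4084 (ad libitum). Every ad libitum change given below is sample 2 minus sample 1 of that animal, so either array can carry it. For ACADM the calorie restriction mean minus the ad libitum signal was 0.28 for sample 2 and -0.86 for sample 1. For DGAT1 these differences were 2.68 and -0.19. The sums of 14 endothelial markers, all past the filter, were 3778 and 4962 (calorie restriction, samples 2 and 1) against 1520 and 3218 (ad libitum, samples 2 and 1), and those of 13 macrophage markers, 12 past the filter, were 3019 and 3184 (calorie restriction) against 6379 and 2514 (ad libitum). CHIT1 alone gave 2923 of the 6379, and without it the macrophage sums were 3003 and 3122 (calorie restriction) against 3455 and 2270 (ad libitum). Of the 13 markers, CHIT1 included, 6 were highest in sample 2 of the ad libitum animal and 3 lowest, CD163, MRC1 and C1QA. The sums of 8 oocyte markers, 3 past the filter, were 208 and 235 (calorie restriction) against 890 and 239 (ad libitum). Of the 8, 7 were highest in the ad libitum animal's sample 2. ZP4 had 8.30 there against 4.65 in sample 1, and ZAR1 had 8.12 against 4.42. Those of 6 red blood cell markers, 2 past the filter, were 8217 and 5347 (calorie restriction) against 1545 and 3459 (ad libitum). HBB, with log2 signals of 12.96 and 12.33 (calorie restriction) against 10.48 and 11.70 (ad libitum), carried most of these sums. In the ad libitum animal 4 of the 6, all below the filter, had positive changes of at most 0.22. The sums of 12 smooth muscle cell and pericyte markers, 11 past the filter, were 10258 and 7258 (calorie restriction) against 13081 and 10858 (ad libitum). Sample 2 of the ad libitum animal was the highest for 7 of the 12. It was the lowest for the other 5, RGS5, PDGFRB, CSPG4, MCAM and NOTCH3. None of 7 adipocyte markers passed the filter. Their sums were 155 and 142 (calorie restriction) against 130 and 126 (ad libitum), and adiponectin, ADIPOQ, had log2 signals of 2.20 and 2.10 (calorie restriction) against 2.20 and 2.10 (ad libitum). The part of these measures in the results below was not tested, and in whole tissue fewer cells of a type and less RNA per cell cannot be told apart.

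The members did not share one direction. In the ad libitum animal 6 of 48 members were 2-fold lower in sample 2, against 6.58% of the 9888 genes past the filter, and 4 were 2-fold higher, against 2.67%. The 6 lower were the triglyceride enzyme DGAT1, the acyl-CoA synthetase ACSL4, the elongases ELOVL6 and ELOVL5, the acyl-CoA dehydrogenase ACADM and the carnitine shuttle enzyme CPT2. The 4 higher were the receptor PPARG and the uptake and binding proteins FABP5, FABP4 and CD36. In the calorie restriction animal 1 member was 2-fold higher, ACSL4, against 0.496% of genes, and 0 were 2-fold lower, against 0.738%.

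**Figure D1:**
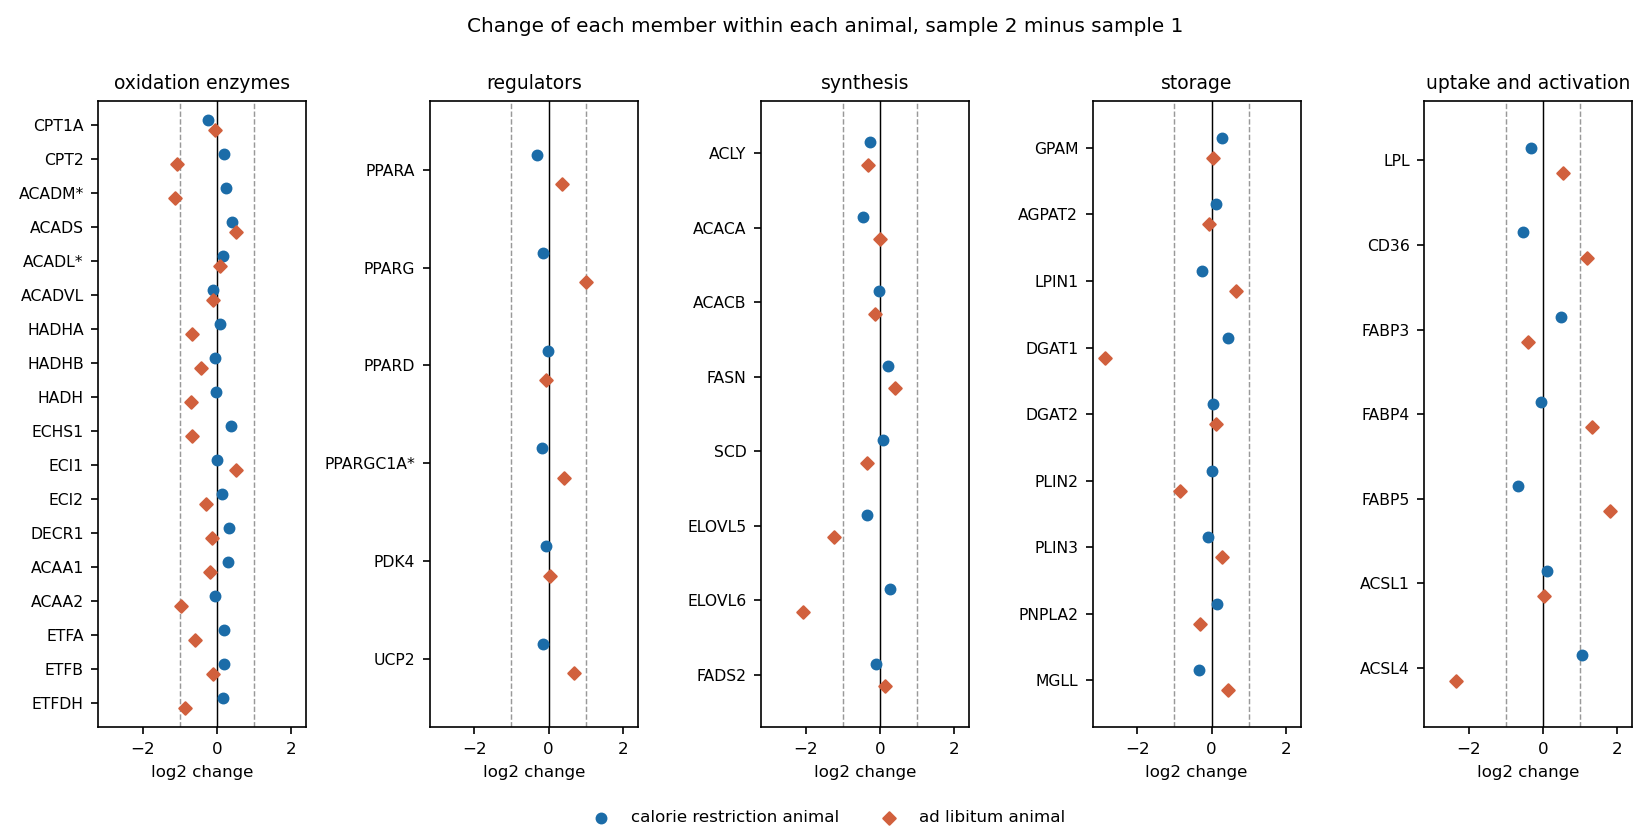
Log2 change of each measured member, sample 2 minus sample 1, in the calorie restriction animal (circles) and the ad libitum animal (diamonds), by class, with 2-fold marked by dashed lines and members below the level filter by an asterisk. Oxidation enzymes of the ad libitum animal lie mostly left of 0 (15 of 18), and PPARG, CD36, FABP4 and FABP5 lie to the right, whereas the circles stay within 2-fold except for ACSL4.

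By class, the medians of the 48 members lay on both sides of 0. Among 18 measured oxidation enzymes the median change was 0.15 in the calorie restriction animal and -0.37 in the ad libitum animal, beside -0.026 (calorie restriction) and -0.013 (ad libitum) over all genes past the filter. Positive changes were found in 13 of the 18 in the calorie restriction animal, beside 45.6% of the genes past the filter, and negative ones in 15 of the 18 in the ad libitum animal, beside 51.4%. The 6 regulators had medians of -0.15 (calorie restriction) and 0.39 (ad libitum). The 8 synthesis genes had -0.067 (calorie restriction) and -0.23 (ad libitum), the 9 storage genes 0.037 (calorie restriction) and 0.050 (ad libitum), and the 7 uptake and activation genes -0.064 (calorie restriction) and 0.54 (ad libitum).

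The carnitine shuttle was measured through 2 of its 3 listed enzymes. CPT1A, the outer-membrane transferase at which malonyl-CoA limits oxidation, had log2 signals of 7.13 and 7.37 in samples 2 and 1 of the calorie restriction animal, against 7.20 and 7.25 in those of the ad libitum animal. CPT2, which rebuilds acyl-CoA inside the mitochondrion, had 6.91 and 6.72 in the calorie restriction animal, against 6.36 and 7.44 in the ad libitum animal. CPT1A thus varied little over the 4 samples, while CPT2 was 2.11-fold lower in sample 2 of the ad libitum animal (-1.08) and both samples of the calorie restriction animal lay between that animal's 2 values. The second CPT2 probe set gave -0.88.

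The acyl-CoA dehydrogenases, which start each turn of the beta-oxidation spiral, differ in the chain length they act on. ACADM, the medium-chain acyl-CoA dehydrogenase, lay below the level filter and had 4.15 and 3.90 in samples 2 and 1 of the calorie restriction animal, against 3.74 and 4.89 in those of the ad libitum animal, where the change was -1.14. ACADVL, its very-long-chain counterpart, had 9.06 and 9.17 (calorie restriction) against 9.38 and 9.48 (ad libitum), and its changes were -0.11 (calorie restriction) and -0.10 (ad libitum). ACADS, the short-chain enzyme, was positive in both animals, with 0.39 (calorie restriction) and 0.50 (ad libitum), and the long-chain ACADL, at a mean of 2.37, was far below the filter.

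Both subunits of the trifunctional protein, which carries out the later steps on long chains, were lowest in the ad libitum animal's sample 2. HADHA had 7.90 and 7.82 in samples 2 and 1 of the calorie restriction animal, against 7.61 and 8.28 in those of the ad libitum animal with changes of 0.09 (calorie restriction) and -0.67 (ad libitum), and its other 2 probe sets gave -0.65 and -0.61 in the ad libitum animal. Its partner HADHB had changes of -0.05 (calorie restriction) and -0.43 (ad libitum). The enzymes for shorter chains gave like values in the ad libitum animal, -0.69 for the hydratase ECHS1 and -0.72 for the dehydrogenase HADH. For the mitochondrial thiolase ACAA2 the value was -0.98, just short of 2-fold, but its second probe set past the filter gave 0.36.

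Enzymes that deal with double bonds or act in peroxisomes had both signs in the ad libitum animal. The dienoyl-CoA reductase DECR1 had a change of -0.13 there, the isomerase ECI2 -0.30 and the peroxisomal thiolase ACAA1 -0.20, while the isomerase ECI1 had 0.52. These 4 lay between 0.01 and 0.31 in the calorie restriction animal and between -0.30 and 0.52 in the ad libitum animal. Of the electron transfer flavoprotein, the subunits ETFA and ETFB had values of 0.19 and 0.20 in the calorie restriction animal and -0.60 and -0.11 in the ad libitum animal. ETFDH, which hands its electrons to ubiquinone, had 7.61 and 7.46 in samples 2 and 1 of the calorie restriction animal, against 6.74 and 7.61 in those of the ad libitum animal. Its ad libitum sample 2 was thus the low one of the 4 (-0.87), and a second, dimmer probe set gave -0.92.

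Changes were positive in the calorie restriction animal and negative in the ad libitum animal in 10 of the 18 oxidation enzymes, all 3 electron transfer genes among them. This pair of signs was found in 27.3% of the genes past the filter. In the calorie restriction animal the second CPT2 probe set gave -0.01 and 1 of the 2 other HADHA probe sets -0.03, while the second ACAA1 probe set kept its sign (0.27). No oxidation enzyme had the opposite pair. The ad libitum animal's sample 2 was the lowest of the 4 in 10 of the 18, and it was the lowest in 36.4% of the genes past the filter. These shares describe the 4 arrays, since enzymes of a pathway are not independent replicates.

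**Figure D2:**
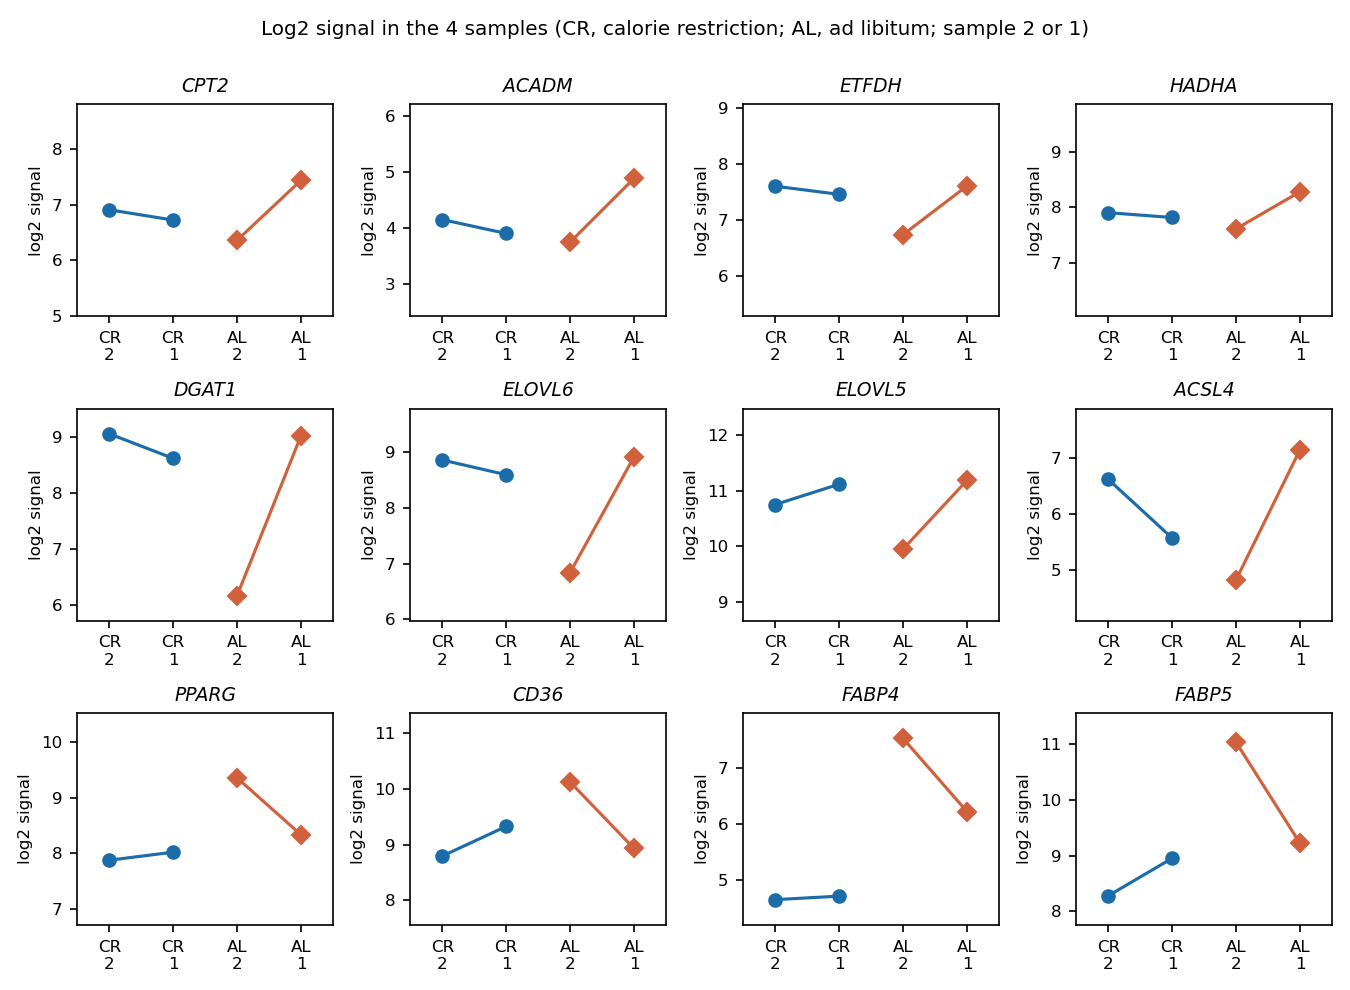
Log2 signal of 12 members in each sample, with calorie restriction (CR, circles) left of ad libitum (AL, diamonds) and sample 2 left of sample 1, each panel spanning the same range of log2 units. For CPT2, ACADM, ETFDH, HADHA, DGAT1, ELOVL6, ELOVL5 and ACSL4 the ad libitum sample 2 is the lowest, and for PPARG, CD36, FABP4 and FABP5 it is the highest.

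Among the regulators most signs were opposite to those of most oxidation enzymes. PPARA, the receptor known for switching on oxidation genes in liver, had 5.72 and 6.05 in samples 2 and 1 of the calorie restriction animal, against 6.34 and 5.97 in those of the ad libitum animal. PPARG, the receptor known for driving lipid storage in fat cells, had 7.88 and 8.02 (calorie restriction) against 9.35 and 8.33 (ad libitum). The ad libitum animal's sample 2 was the high one for both, 2.03-fold over sample 1 for PPARG (1.02) and 0.37 on the log2 scale for PPARA. In the calorie restriction animal the change of PPARG was -0.14, and it had 1 probe set.

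All 6 regulators had a negative change in the calorie restriction animal and 5 of the 6 a positive one in the ad libitum animal, a pair of signs found in 30.2% of the genes past the filter. UCP2, a carrier of the inner mitochondrial membrane, had changes of -0.16 (calorie restriction) and 0.69 (ad libitum), and its second probe set gave -0.36 (calorie restriction) and 0.97 (ad libitum). PPARD had changes of -0.02 (calorie restriction) and -0.08 (ad libitum), the coactivator PPARGC1A, below the filter, had -0.18 (calorie restriction) and 0.42 (ad libitum), and PDK4, a kinase that turns pyruvate away from oxidation, had -0.07 (calorie restriction) and 0.04 (ad libitum). The signs depended in part on the probe set. Another PPARD probe set past the filter gave 0.26 (calorie restriction) and 0.03 (ad libitum). Of the 2 other PPARA probe sets past the filter, 1 gave 0.36 and 1 gave -0.03 in the ad libitum animal. Averaging each gene's probe sets gave a regulator median of 0.16 in the ad libitum animal, against 0.39 with the brightest. With that averaging 4 of the 6 were negative in the calorie restriction animal and 4 positive in the ad libitum animal.

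The enzymes of fatty acid synthesis proper gave changes under 2-fold in both animals. FASN, which assembles palmitate, had 7.48 and 7.27 in samples 2 and 1 of the calorie restriction animal, against 7.34 and 6.93 in those of the ad libitum animal. ACACA, which makes its malonyl-CoA building block, had 6.16 and 6.63 (calorie restriction) against 6.47 and 6.48 (ad libitum). For both, the spread within an animal covered the gap between the animals. ACLY, which supplies cytosolic acetyl-CoA, had changes of -0.28 (calorie restriction) and -0.33 (ad libitum). ACACB, whose malonyl-CoA restrains CPT1, had changes of -0.01 (calorie restriction) and -0.12 (ad libitum), and its other 3 probe sets past the filter gave positive changes of 0.31 to 0.90 in the ad libitum animal, so the direction of ACACB there depends on the probe set.

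The elongases gave larger changes. ELOVL6, which lengthens palmitate to stearate, had 8.86 and 8.59 in samples 2 and 1 of the calorie restriction animal, against 6.84 and 8.91 in those of the ad libitum animal. ELOVL5, which lengthens polyunsaturated chains, had 10.75 and 11.12 (calorie restriction) against 9.95 and 11.19 (ad libitum). In the ad libitum animal's sample 2 ELOVL6 was thus 4.22-fold and ELOVL5 2.35-fold below sample 1 (-2.08 and -1.23), and the other 3 samples lay close together for each. The dimmer probe sets of ELOVL6 gave -0.52 and -0.41, while those of ELOVL5, all below the filter, gave -0.01 to -0.07.

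The measured desaturases gave smaller changes. SCD, which makes oleate and palmitoleate, had 7.28 and 7.20 in samples 2 and 1 of the calorie restriction animal, against 6.88 and 7.23 in those of the ad libitum animal, a change of -0.34 that the second probe set past the filter put at 0.13. FADS2, a desaturase of polyunsaturated chains, had a change of -0.12 in the calorie restriction animal and 0.13 in the ad libitum animal.

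Triglyceride synthesis held the member with the largest change of the 48. DGAT1, one of a pair of enzymes that add the last acyl chain, had 9.07 and 8.62 in samples 2 and 1 of the calorie restriction animal, against 6.17 and 9.03 in those of the ad libitum animal. That sample 2 was 7.29-fold below sample 1 (-2.87), which ranked 58 in size among the 9888 genes, and the other 3 samples lay within 0.44 of each other. DGAT1 had 1 probe set, so no second one could be compared.

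The other enzymes of the same route gave changes under 2-fold. DGAT2, which does the same step as DGAT1, had 5.32 and 5.29 in samples 2 and 1 of the calorie restriction animal, against 5.28 and 5.17 in those of the ad libitum animal, at the edge of the level filter. GPAM, the first acyltransferase, had changes of 0.27 (calorie restriction) and 0.05 (ad libitum), and AGPAT2, the second, 0.11 (calorie restriction) and -0.06 (ad libitum). LPIN1, the phosphatase that yields diacylglycerol, had changes of -0.25 (calorie restriction) and 0.66 (ad libitum), and its other probe set past the filter gave -0.28 (calorie restriction) and 0.68 (ad libitum). In the ad libitum animal the route thus held 1 member that was 2-fold lower, 0 that were 2-fold higher and a median of 0.050.

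The droplet genes also gave changes under 2-fold. PLIN2, the perilipin that coats droplets in most non-fat cells, had 5.91 and 5.90 in samples 2 and 1 of the calorie restriction animal, against 5.49 and 6.33 in those of the ad libitum animal, where the change was -0.84 and that of a second, dimmer probe set below the filter 0.57. PNPLA2, the lipase that starts triglyceride breakdown, had 7.89 and 7.74 (calorie restriction) against 7.75 and 8.07 (ad libitum), and its 2 probe sets disagreed in the ad libitum animal (-0.32 and 0.46). For both genes the calorie restriction samples lay inside or next to the ad libitum range. The perilipin PLIN3 had changes of -0.09 (calorie restriction) and 0.28 (ad libitum). MGLL, which splits monoacylglycerol, had changes of -0.33 (calorie restriction) and 0.44 (ad libitum), and its second probe set gave -0.18 (calorie restriction) and 0.80 (ad libitum).

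Of the 5 uptake and binding genes, 3 were at least 2-fold brighter in sample 2 than in sample 1 of the ad libitum animal. FABP5, a fatty acid carrier of many cell types, had 8.28 and 8.95 in samples 2 and 1 of the calorie restriction animal, against 11.03 and 9.22 in those of the ad libitum animal. FABP4, a carrier known from fat cells, macrophages and capillary endothelium, had 4.64 and 4.70 (calorie restriction) against 7.53 and 6.22 (ad libitum). CD36, a scavenger receptor and fatty acid translocase, had 8.79 and 9.32 (calorie restriction) against 10.12 and 8.93 (ad libitum). Sample 2 of the ad libitum animal was thus 3.51-fold, 2.48-fold and 2.28-fold over sample 1 for these 3 genes (1.81, 1.31 and 1.19), and the highest of the 4 samples for each. The endothelial marker sum was lowest there, at 1520. Of 13 macrophage markers 3 were 2-fold higher there and 1, CD163, 2-fold lower, and no adipocyte marker passed the filter.

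In the calorie restriction animal the same 3 genes had changes of -0.67, -0.06 and -0.53. The second CD36 probe set past the filter gave 0.76 in the ad libitum animal, the second FABP4 probe set lay far below the filter, and FABP5 had 1 probe set. LPL, the lipase of the vessel wall, had 5.35 and 5.68 in samples 2 and 1 of the calorie restriction animal, against 5.88 and 5.33 in those of the ad libitum animal. The carrier FABP3, known from heart and muscle, had the opposite signs of its relatives, 0.49 (calorie restriction) and -0.41 (ad libitum).

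The 2 measured acyl-CoA synthetases behaved differently. ACSL4, which prefers arachidonate, had 6.62 and 5.57 in samples 2 and 1 of the calorie restriction animal, against 4.82 and 7.15 in those of the ad libitum animal. Its sample 2 was 2.08-fold higher in the calorie restriction animal (1.05) and 5.04-fold lower in the ad libitum animal (-2.33), and the 2 animals' ranges overlapped. The other ACSL4 probe sets, both below the filter, gave 0.16 and 0.29 in the calorie restriction animal and -0.63 and -0.61 in the ad libitum animal, the same signs at smaller size. ACSL1, the main form of fat and liver, had changes of 0.11 (calorie restriction) and 0.03 (ad libitum).

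**Figure D3:**
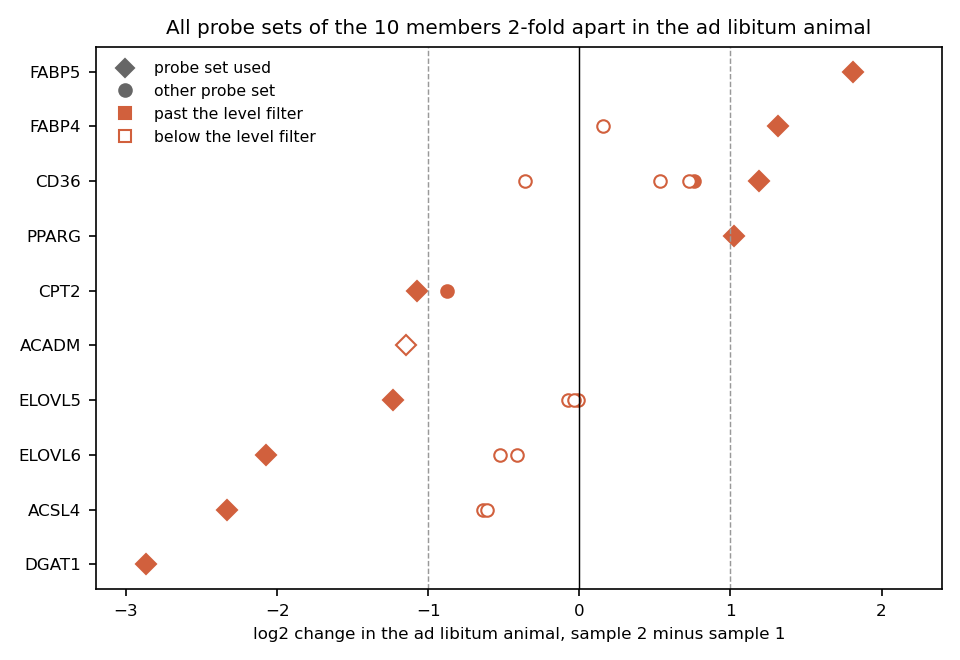
Log2 change, sample 2 minus sample 1, in the ad libitum animal for each probe set of the 10 members that were 2-fold apart there (diamond, the probe set used; circle, another; filled, past the level filter; dashed lines, 2-fold). All 10 diamonds lie beyond 2-fold, no other probe set does, and only CPT2 and CD36 have another one past the filter.

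Over all members, 17 had another probe set past the filter, 22 such probe sets in all, and 14 of the 22 had the direction of the one used in the ad libitum animal. Of the 10 members that were 2-fold apart there, 4 had no other probe set and another 4 had only dimmer ones below the filter.

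Set against each other, the changes in the 2 animals leaned to opposite signs. Pearson's r between them was -0.61 and Spearman's rho -0.51 across the 48 members, beside -0.27 and -0.24 across the 9888 genes. Genes are not independent replicates, and each change is the difference of 2 arrays, so this is a description. At 1.5-fold in both animals, 2 members had opposite signs, ACSL4 and FABP5, against 2.63% of genes.

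**Figure D4:**
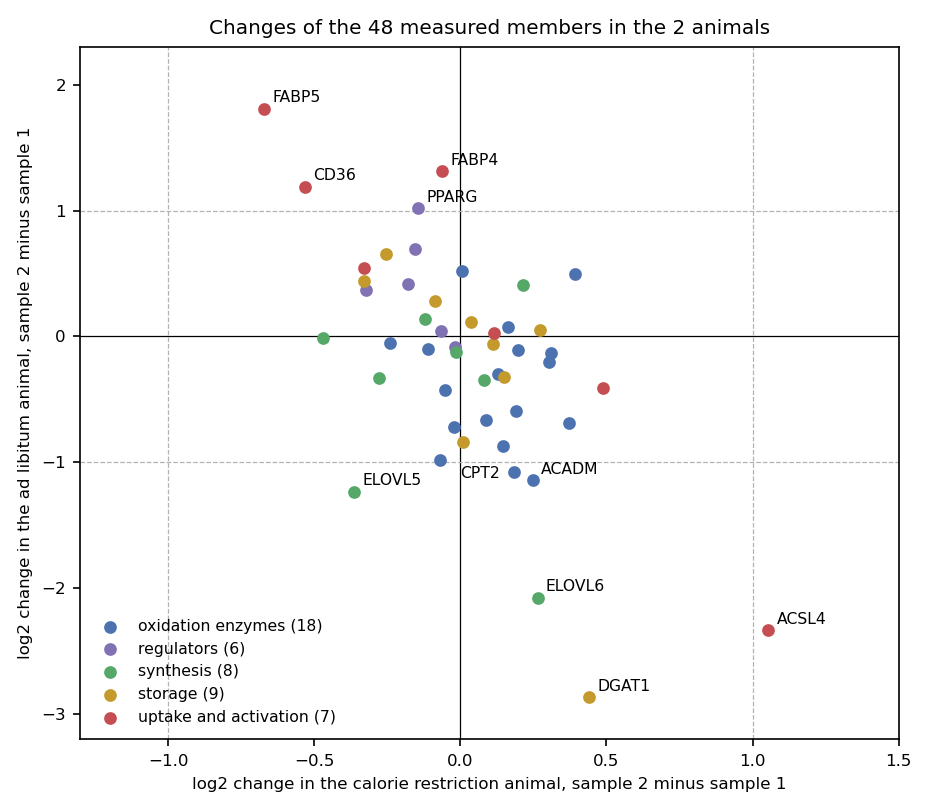
Log2 change (sample 2 minus sample 1) of each of the 48 measured members in the calorie restriction animal (horizontal axis) and the ad libitum animal (vertical axis), coloured by class, with the 10 members 2-fold apart in either animal named. ACSL4 and DGAT1 lie at lower right and FABP5 and CD36 at upper left.

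Fits over both animals with the animal as a block (limma, Benjamini-Hochberg adjustment, 1 residual degree of freedom) called 0 of 9888 genes, whether the change was taken as shared by the animals or as opposed between them. At an unadjusted p under 0.05 the shared fit passed 1.82% of genes and 0 of the 45 members. The opposed fit passed 7.46% of genes and 6 of the 45 members, ACSL4, FABP5, CD36, DGAT1, ELOVL6 and ECHS1, with adjusted p between 0.63 and 0.67 in limma.

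Between the animals, the question was which members differed between the calorie-restricted and the ad libitum fed monkey, with 2 samples of each. In limma 0 of 9888 genes passed an adjusted p of 0.05, and 5.28% passed an unadjusted p of 0.05, among them 4 of the 45 members, FABP4, ECI2, MGLL and ACSL1. Such p-values weigh the difference against the spread of samples within these 2 animals, and the spread between animals of one diet is not in them. In 12 members both calorie restriction samples lay below both ad libitum samples, where 18.7% of genes did so, and in 3 they lay above, where 16.6% did. The 12 held 4 of the 6 regulators, PPARG, PPARD, PDK4 and UCP2, 4 oxidation enzymes, 3 uptake and activation genes and MGLL, and the 3 were ACACB, AGPAT2 and DGAT2. For ACACB the other 3 probe sets past the filter gave differences of -0.54, -0.45 and -0.23, opposite to the 0.19 of the one used. The DGAT2 difference was only 0.08, and in its second probe set, below the filter, the animals' samples overlapped.

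Only 3 of the 48 had non-overlapping samples and means 2-fold apart, FABP4, FABP5 and ECI2, all lower in the calorie restriction animal, where 1.27% of genes were lower by this rule and 1.81% higher. Without the ad libitum animal's sample 1 the count was 9, but non-overlap is easier to meet with a lone ad libitum sample. The share of all genes under that rule was not computed, so the rise is not read as a result about the members. FABP4 averaged 4.67 ± 0.04 in the calorie restriction animal and 6.87 ± 0.93 in the ad libitum animal (log2 signal, SD, n = 2 each). The calorie restriction animal was 4.60-fold lower (-2.20, 95% interval -3.37 to -1.04, limma adjusted p = 0.71). Both of its calorie restriction values lay below the 5.26 of the level filter, which FABP4 passed only through the ad libitum samples, so its place among the tested genes is no support for the difference. Without the ad libitum animal's sample 2 the difference was -1.55. The calorie restriction samples were nearly alike at a low level, and the ad libitum samples were both above them but far apart.

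FABP5 averaged 8.62 ± 0.48 in the calorie restriction animal and 10.13 ± 1.28 in the ad libitum animal (log2 signal, SD, n = 2 each). The calorie restriction animal was 2.85-fold lower (-1.51, interval -3.19 to 0.17, limma adjusted p = 0.88), and without the ad libitum animal's sample 2 the difference was -0.60. ECI2, which shifts double bonds of unsaturated acyl-CoA, had 6.84 and 6.71 in samples 2 and 1 of the calorie restriction animal, against 7.64 and 7.94 in those of the ad libitum animal. It was 2.02-fold lower (-1.02, interval -1.54 to -0.49, limma adjusted p = 0.71), with both animals' samples close together. Without the ad libitum animal's sample 2 the ECI2 difference was -1.17, and the gene had 1 probe set.

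MGLL was 1.80-fold lower in the calorie restriction animal (-0.85, interval -1.49 to -0.21, limma adjusted p = 0.83). ACSL1 was 1.49-fold lower (-0.57, interval -1.01 to -0.14, limma adjusted p = 0.83), although its second probe set gave -0.15. DGAT1, ELOVL6 and ACSL4 had differences of 1.25, 0.85 and 0.11 with overlapping samples. For DGAT1 the interval ran from -1.22 to 3.71.

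The call depended on which ad libitum sample was kept. With sample 1 of that animal left out, limma called 4.79% of genes and 5 of the 45 members, the calorie restriction animal being lower for FABP4 (-2.86, adjusted p = 0.0084), FABP5 (-2.42, adjusted p = 0.034) and PPARG (-1.40, adjusted p = 0.035) and higher for DGAT1 (2.68, adjusted p = 0.018) and ELOVL6 (1.89, adjusted p = 0.026). FABP4 was in that test, too, only through its ad libitum signals. The lone ad libitum sample is then assumed to vary like the calorie restriction samples. Leaving out any of the other 3 samples called 0 members.

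**Figure D5:**
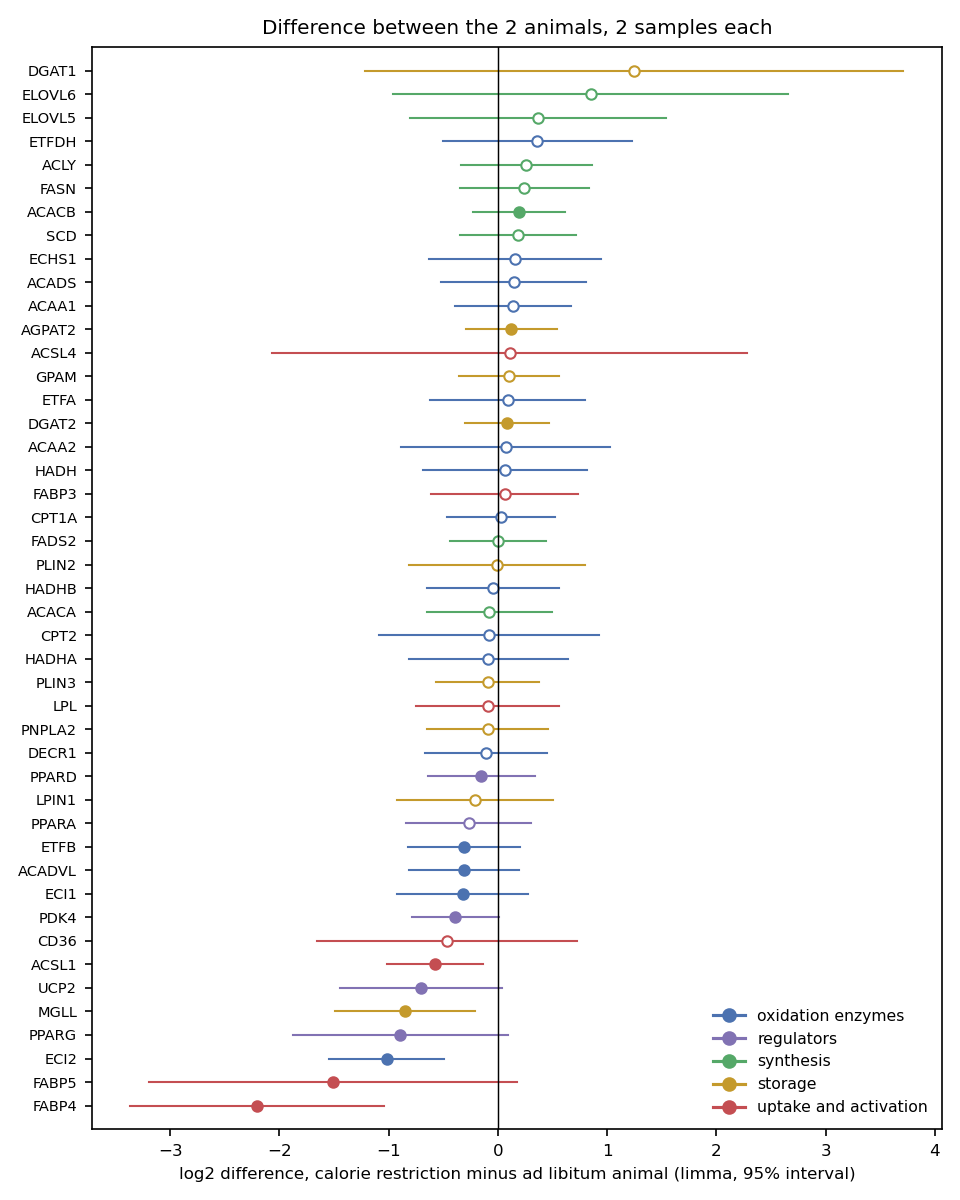
Difference in mean log2 signal, calorie restriction minus ad libitum animal, for the 45 members past the level filter, with 95% intervals from limma, coloured by class (filled, the animals' samples do not overlap; open, they do). FABP4, ECI2, MGLL and ACSL1 have intervals that exclude 0 and lie below it, and 0 members pass after adjustment.

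Further genes of the same pathways were counted from fixed lists. None of 21 measured further oxidation genes (carnitine carriers, branched-chain and peroxisomal enzymes, ketone body enzymes) was 2-fold apart in either animal, with medians of 0.02 in the calorie restriction animal and -0.25 in the ad libitum animal. Of 17 further regulators, PDK3, a pyruvate dehydrogenase kinase, had changes of -0.75 (calorie restriction) and 1.36 (ad libitum), and ANGPTL4, a PPAR target that inhibits LPL, 0.39 (calorie restriction) and -1.36 (ad libitum). No other of the 17 reached 2-fold.

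Among 22 further synthesis genes, the desaturase relative FADS3 had a change of 0.42 in the calorie restriction animal and -1.05 in the ad libitum animal, and ME1, which makes NADPH for synthesis, 0.18 (calorie restriction) and -1.01 (ad libitum). THRSP, below the filter, had a change of 1.01 in the ad libitum animal. Of 28 further storage genes, the monoacylglycerol lipase ABHD6 had changes of 1.06 (calorie restriction) and -0.71 (ad libitum) and the carboxylesterase CES1 had -0.01 (calorie restriction) and 1.08 (ad libitum). ABHD5, the activator of PNPLA2, had 5.10 and 4.99 in samples 2 and 1 of the calorie restriction animal, against 4.51 and 6.21 in those of the ad libitum animal, where the change was -1.70, and lay just below the filter. Of 19 further uptake and activation genes only FABP7, below the filter, was 2-fold apart (1.62 in the ad libitum animal). THRSP, ABHD5 and FABP7 are named after their values were seen.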

How the data were processed

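RNA of corpus luteum was labelled and put on 4 arrays of human probe sets, each with the RNA of 1 sample. The submitters' processing notes name Affymetrix Power Tools and RMA, a method that corrects background, equalises the distribution of signals over arrays and joins probes into probe sets. The values deposited by the authors are read here as log2 signals from their range. Tool versions were not given in the sources used here. Depth and detection of single probes are unknown, since no scanner values were analysed, and precision is limited by having 4 arrays.

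Of 54675 probe sets, 62 were controls, 41091 named 1 symbol, 1801 several and 11721 none. All 51 listed symbols were found among vervet genes of RefSeq (assembly mChlSab1.0.hap1). Only symbols were matched, and how well the human probes bind vervet transcripts was not tested, so a low signal need not mean low expression. Levels of different probe sets were set against each other only in choosing the brightest, in the level filter and in the marker sums.

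Fits used limma 3.58.1 in R 4.3.3 over the 9888 genes past the level filter, with lmFit, a trended eBayes and Benjamini-Hochberg adjustment, called at an adjusted p under 0.05, and were tested on simulated data. Nothing in the labels says how samples of an animal were separated, so p-values may measure technical spread.

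The members, classes and lists were chosen with earlier results of these data known. Values in all samples were given for members 2-fold apart within an animal, or non-overlapping and 2-fold apart between animals, and for main members of each class fixed by name. Other pathway genes past the filter were named where 2-fold apart within an animal. Alternatives were other level filters, 2 further normalisations (cyclic loess, quantile), averaged probe sets, only more specific probe sets, other fold thresholds, an untrended eBayes, a block for sample number and leaving out each sample.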

Additional observations from a re-analysis of the deposited data

Results flagged for a closer look

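FABP5 and ACSL4 were picked out because their changes were 1.5-fold or more in opposite directions in the 2 animals. FABP5 had a change of -0.67 in the calorie restriction animal and 1.81 in the ad libitum animal, and ACSL4 one of 1.05 in the calorie restriction animal and -2.33 in the ad libitum animal. Each change comes from 1 pair of arrays, so the difference between the animals' changes was not tested against replicates. Groups of 2 samples are too small for a check of single outlying samples.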

How the results depend on the processing

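The directions of the 11 changes of 2-fold or more held under all 7 alternative filters, normalisations and probe set choices, where they gave a value, although 8 such values lay under 2-fold. Averaging a gene's probe sets gave 0 members 2-fold higher in the calorie restriction animal in place of 1 and 2 in the ad libitum animal in place of 4, and 80 genes 2-fold apart in place of 122 in the calorie restriction and 593 in place of 915 in the ad libitum animal. A filter at the 75th percentile gave 0 members higher in the calorie restriction animal, 3 lower in the ad libitum animal, and 59 genes in the calorie restriction and 546 in the ad libitum animal. A 1.5-fold threshold gave 1 member lower in the calorie restriction animal, 13 lower in the ad libitum animal, and 588 genes in the calorie restriction and 2448 in the ad libitum animal. A 3-fold threshold gave 0 higher in the calorie restriction animal, 1 higher and 3 lower in the ad libitum animal, and 20 genes in the calorie restriction and 312 in the ad libitum animal. A filter or a threshold sets these counts by its own construction, and the cause of the other shifts was not tested.

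With the 75th percentile filter the class medians in the calorie restriction animal were 0.080 for synthesis, a change of sign, 0.15 for storage and -0.60 for uptake and activation. Those in the ad libitum animal were -0.51 for oxidation enzymes, 0.69 for regulators, -0.34 for synthesis, -0.32 for storage, a change of sign, and 1.5 for uptake and activation. With probe sets averaged, the synthesis median was 0.034 in the calorie restriction animal, a change of sign, and -0.063 in the ad libitum animal, where regulators had 0.16 and uptake and activation 0.37. The sign in the calorie restriction animal also turned for uptake and activation with probe sets averaged (0.025) and for synthesis without less specific probe sets (0.033). The ad libitum oxidation median was -0.25 after repeated quantile normalisation and -0.25 without less specific probe sets.

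For the difference between animals, leaving out single samples gave 0 to 474 genes and 0 to 5 members called, and 3 to 9 members with non-overlapping samples and means 2-fold apart. The highest of each came without the ad libitum animal's sample 1, and for the non-overlapping members the share of all genes was not computed. With sample number as a replicate block limma called 0 genes (506 at an unadjusted p under 0.05, beside 522), and without a trend 0. Same-numbered samples' deviations had a correlation of -0.27 across genes, and with the numbers crossed between animals, an alternative chosen after seeing the data, limma called 0 genes (809 at an unadjusted p under 0.05). Alternatives for sign counts of oxidation enzymes and regulators and for non-overlapping members were also chosen after seeing the data.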

Other observations

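Genes next to the members also lay apart between the animals, and those below were named after their values were seen. SREBF1, the transcription factor that drives fatty acid synthesis, had log2 signals of 7.61 and 7.83 in samples 2 and 1 of the calorie restriction animal, against 6.94 and 6.50 in those of the ad libitum animal, a mean difference of 1.01 (limma adjusted p = 0.73). Its targets FASN and SCD had differences of 0.24 and 0.18, with overlapping samples in both. Over the 8 measured synthesis members the differences ran from -0.08 to 0.85. SLC27A2, a fatty acid transport protein with acyl-CoA synthetase activity, had 7.04 and 7.45 (calorie restriction) against 5.47 and 5.73 (ad libitum), a difference of 1.65 (limma adjusted p = 0.50).

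Lower in the calorie restriction animal were CES1, a carboxylesterase known from liver and macrophages, with 3.94 and 3.95 (calorie restriction) against 8.23 and 7.15 (ad libitum), a difference of -3.74 in a gene that passed the level filter only through the ad libitum samples, and the pyruvate dehydrogenase kinase PDK1, with 5.6 and 5.90 (calorie restriction) against 6.76 and 6.50 (ad libitum), a difference of -0.88 (limma adjusted p = 0.71). PDK3 had 7.04 and 7.79 (calorie restriction) against 9.34 and 7.99 (ad libitum), a difference of -1.25 (limma adjusted p = 0.88). In each of these 5 genes the animals' samples did not overlap, and none passed limma's adjusted test. Over all genes past the filter, 16.6% did not overlap with the calorie restriction animal higher and 18.7% with it lower. Other genes of the lists did not overlap either, among them ABHD6 (1.23) and NCEH1 (-1.11, below the filter).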
